A study of Rattus norvegicus with 8 samples.

Results

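Slc25 genes encode the mitochondrial carriers, the solute carrier family that moves metabolites, nucleotides and cofactors across the inner mitochondrial membrane. The family was described in rat kidney cortex and medulla, array by array. Its members were all genes whose symbol starts with Slc25a in the array's annotation, among probe sets with 1 gene symbol, and a gene with more than 1 probe set was represented by the brightest. This gave 44 members of 18166 genes. Expression had been measured on 8 Affymetrix whole-transcript arrays, 4 of cortex and 4 of medulla, from male Wistar rats aged 10 weeks. Every array carries the same treatment label, ethylene glycol each day with vitamin D every second day for 1 week, a combination used to raise calcium oxalate crystals in the kidney, and the labels tell no treated arrays from untreated ones. The series' design text speaks of 2-fold changes within each region, but the arrays it compared are not named in the labels, so no contrast within a region was made. No animals are named in the labels, so a p-value here reflects how far these arrays vary among themselves. How much of that variation lies between animals and how much is technical is not known. Arrays are called cortex 1 to 4 and medulla 1 to 4, where the number is a name in label order. The labels do not say whether arrays of the same number share an animal, so no pairing was used.

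Mitochondrial carriers are built from a repeated membrane fold and usually exchange a solute of the matrix for a solute of the cytosol. They link the tricarboxylic acid cycle, the malate-aspartate shuttle, the urea cycle, fatty acid oxidation and ATP export to the rest of the cell. In the kidney, the proximal tubule and the thick ascending limb are the segments richest in mitochondria, and the proximal tubule uses the dicarboxylate and amino acid carriers in making glucose and ammonia.

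The promoters of 4 carriers that recur in the results are shown, Slc25a35, Slc25a10 and Slc25a11 because they were lowest or near lowest on the arrays called cortex 4 and medulla 4, and Slc25a24 because it was highest there. Each sequence is the 250 bases before the gene's start in the RefSeq annotation of GRCr8. Capitals mark matches on either strand to the GC box GGGCGG, the CCAAT box CCAAT and the AP-1 element TGACTCA.
Slc25a35 (chr10:54172115-54172364, plus strand): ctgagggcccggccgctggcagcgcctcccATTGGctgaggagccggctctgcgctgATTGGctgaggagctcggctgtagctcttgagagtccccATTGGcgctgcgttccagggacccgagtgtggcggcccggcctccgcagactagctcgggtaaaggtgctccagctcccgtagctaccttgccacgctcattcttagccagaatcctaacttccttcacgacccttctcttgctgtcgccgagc
Slc25a10 (chr10:106264146-106264395, plus strand): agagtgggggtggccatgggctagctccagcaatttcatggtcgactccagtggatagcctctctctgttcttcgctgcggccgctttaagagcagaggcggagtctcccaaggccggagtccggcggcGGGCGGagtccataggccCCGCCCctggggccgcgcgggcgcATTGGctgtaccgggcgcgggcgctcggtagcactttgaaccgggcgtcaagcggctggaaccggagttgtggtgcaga
Slc25a11 (chr10:55859061-55859310, minus strand): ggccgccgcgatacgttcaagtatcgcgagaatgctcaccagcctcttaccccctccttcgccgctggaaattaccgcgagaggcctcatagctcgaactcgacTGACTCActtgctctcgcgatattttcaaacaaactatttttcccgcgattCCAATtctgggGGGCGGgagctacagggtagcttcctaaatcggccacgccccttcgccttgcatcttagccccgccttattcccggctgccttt
Slc25a24 (chr2:199449175-199449424, plus strand): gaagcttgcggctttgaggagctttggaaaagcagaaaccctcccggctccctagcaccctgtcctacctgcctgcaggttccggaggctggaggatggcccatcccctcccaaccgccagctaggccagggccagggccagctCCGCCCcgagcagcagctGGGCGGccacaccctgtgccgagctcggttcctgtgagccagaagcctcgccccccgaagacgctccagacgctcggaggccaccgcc

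The Slc25a35 window held 3 CCAAT boxes and no GC box, and 64% of its bases were G or C. Slc25a10 held 2 GC boxes and 1 CCAAT box, Slc25a11 held 1 of each with 1 AP-1 element, and Slc25a24 held 2 GC boxes. RefSeq promoters were found for 37 of the 44 members. A GC box lay in 21 of the 37 (56.8%) and in 30.5% of all 33469 promoters of the same length. A CCAAT box lay in 20 of them (54.1%, against 34.0%), the E-box CACGTG in 4 (10.8%, against 5.59%), and TATAAA in 1 (2.70%, against 12.9%). The AP-1 element was in Slc25a11 alone among the members (2.70%, against 4.05%). The NRF1 palindrome, the oestrogen-related receptor element TCAAGGTCA, the direct repeat with a 1-base spacer, the HNF1 palindrome and the HNF4 core CAAAGTCCA were in 0 of the 37 windows. They were in 0.762%, 0.388%, 0.0508%, 0.00299% and 0.338% of all promoters. A match describes letters in the window and is not a bound site.

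All intensities are given as log2 of the deposited value, and a level is comparable only within a probe set, not between genes. Array medians lay between 5.09 and 5.12, and 37 of the 44 members had a mean above the median probe set. Slc25a31, a testis ADP/ATP carrier, Slc25a52, Slc25a54 and Slc25a19l1 were dim, with means in the lowest 30 percent of probe sets, and Slc25a31 read between 4.21 and 4.26 on every array. Slc25a5 and Slc25a6, the other ADP/ATP carriers, share 2 probe sets that name both, so neither is a member. Those probe sets read 7.67 and 9.60 on average in cortex and 7.51 and 9.45 in medulla, and both were lowest of the cortex arrays on cortex 4. Pseudogenes or close copies are named in RefSeq for 11 members, with 8 copies for Slc25a39, and the probes may not tell their transcripts apart.

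On the array called cortex 4, 27 of the 44 carriers had their lowest cortex value (61.4%, against 31.6% of all genes). It was the highest cortex array for 7 carriers (15.9%, against 32.1% of all genes). In medulla the low values were spread over a pair of arrays. Medulla 4 was the lowest for 17 members (38.6%, against 28.1%) and medulla 3 for 16 (36.4%, against 30%), and these were the lowest pair in 21 members (47.7%, against 24.3%). Medulla 2 was the highest for 22 members (50%, against 27%). The arrays numbered 4 were lowest in both regions for 16 carriers (36.4%, against 16% of all genes) and highest in both for Slc25a22, Slc25a24 and Slc25a37 (6.82%, against 17%). Median deviations from the region mean were 0.04, 0.06, 0.02 and -0.09 on cortex 1 to 4 and 0.02, 0.09, -0.03 and -0.10 on medulla 1 to 4. These counts describe the arrays and carry no test, since the labels give no grouping of arrays within a region.

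**Figure D1:**
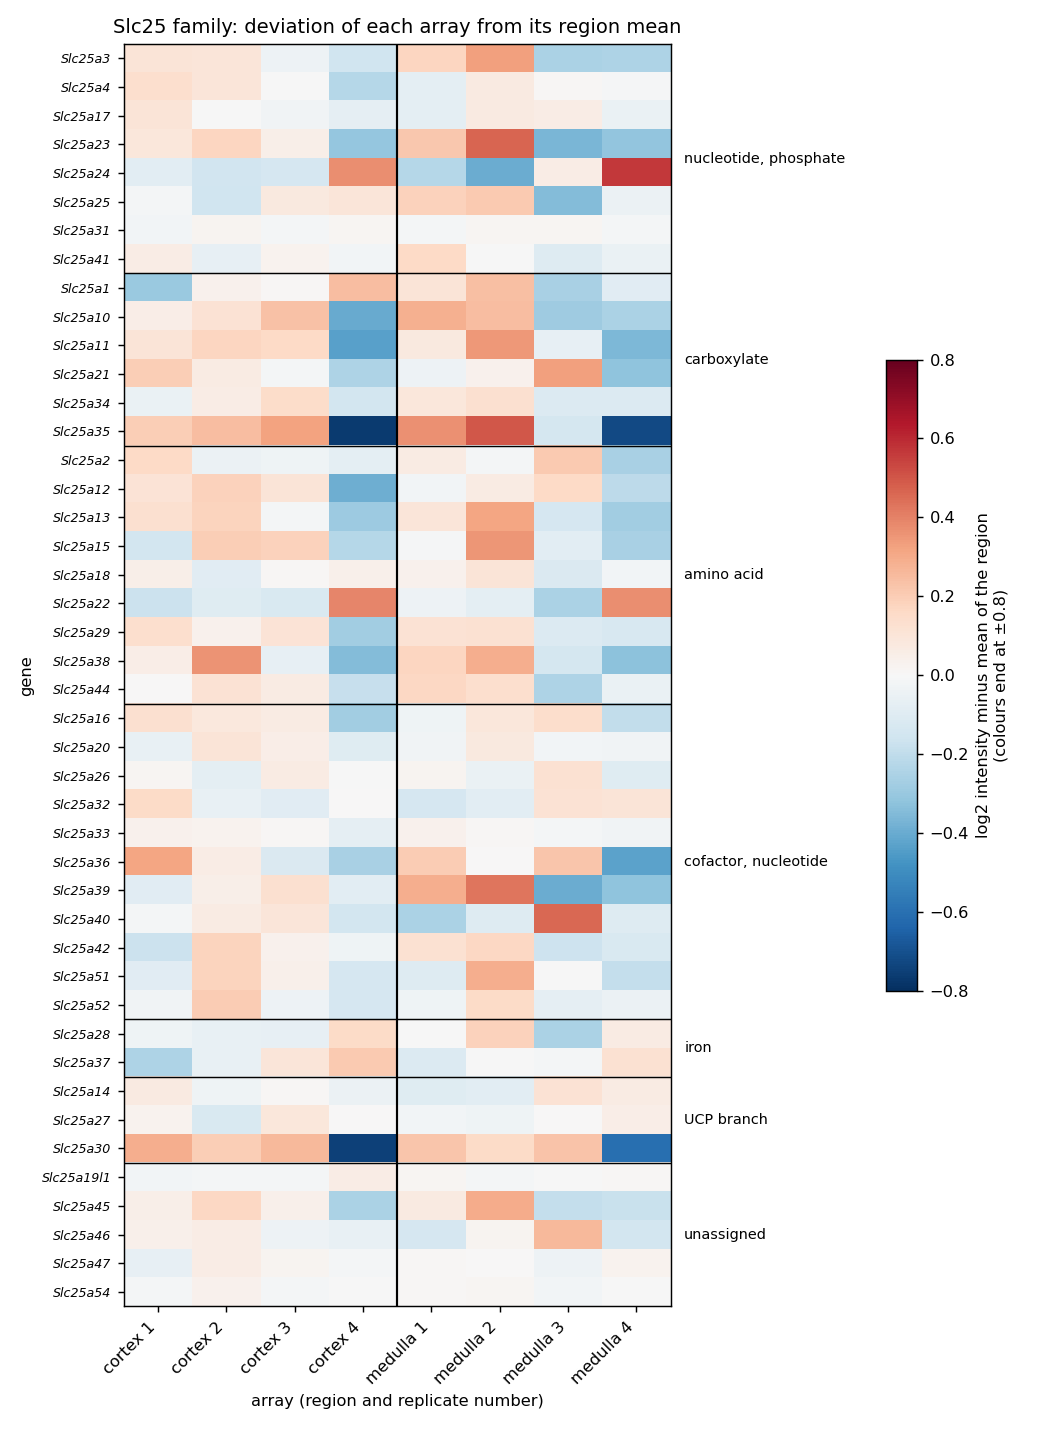
Each cell is the log2 intensity of 1 gene on 1 array minus the mean of the 4 arrays of that region, with genes grouped by what their product carries. Most cells of cortex 4 are blue, down to -0.77 for Slc25a35, while Slc25a22, Slc25a24 and Slc25a37 are red on cortex 4 and on medulla 4.

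The highest and the lowest array of a region differed by a median of 0.30 in cortex and 0.41 in medulla over the carriers, beside 0.21 and 0.25 over all genes. The carriers' median was 0.13 in cortex without cortex 4, and 0.25 in medulla without medulla 3 or without medulla 4. Leaving out an array can only keep or lower a range, and the medians over all genes were not taken without these arrays. Over the 37 carriers above the median probe set, with all arrays, the medians were 0.37 in cortex and 0.48 in medulla. The values for all genes, here and throughout, were not matched to the carriers in brightness. The study's own 2-fold comparisons within a region cannot be rebuilt from the labels, so its 2-fold size was applied here to the range over 4 arrays, which is another quantity. Slc25a35 and Slc25a30 reached it in cortex (2 of 44, 4.55%, against 3.6% of all genes) and Slc25a35 in medulla (1 of 44, 2.27%, against 3.8%). Slc25a35 was thus the member that reached it in both regions (2.27%, against 2.21%). These shares lie near those of all genes. At 1.5-fold the counts were 5 in cortex (11.4%, against 11.4%), 13 in medulla (29.5%, against 15.1%) and 4 in both (9.09%, against 8.12%). Slc25a24 came just short of 2-fold in medulla with a range of 0.96, followed by Slc25a23, Slc25a30 and Slc25a39 at 0.83 each. Without the arrays numbered 4, a choice made after the values were seen, 0 members reached 2-fold in either region.

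**Figure D2:**
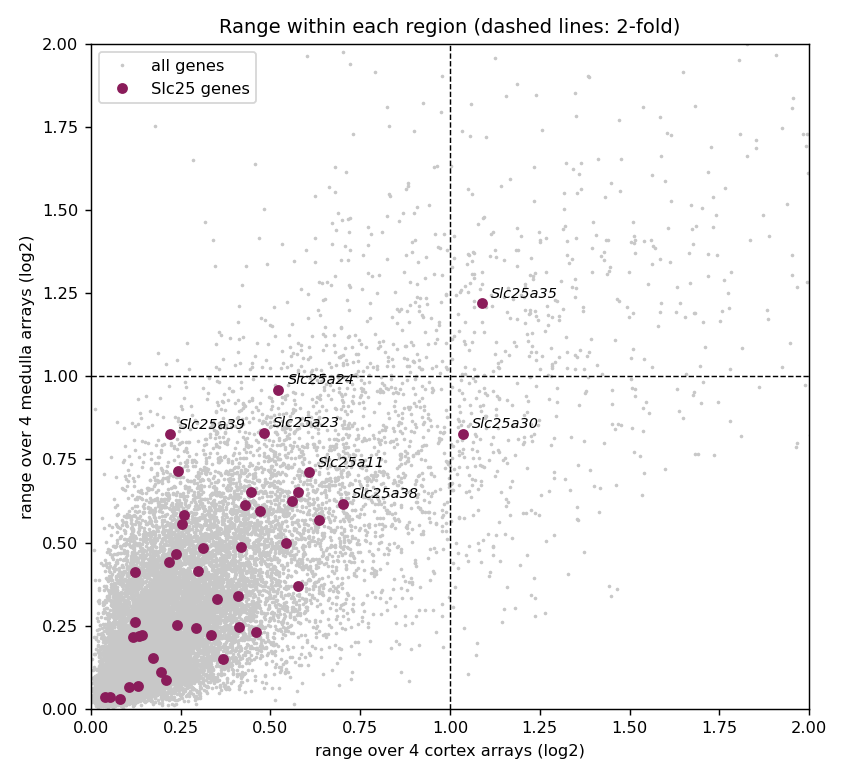
Points give the log2 range over the 4 cortex arrays (horizontal) and over the 4 medulla arrays (vertical) for the 44 carriers and, in grey, all genes, of which 115 lie beyond the axes. Slc25a35, at 1.09 and 1.22, is the carrier beyond both dashed 2-fold lines, and Slc25a30 lies beyond the cortex line at 1.04.

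Region was the contrast the labels allow, and it asks whether carriers were expressed differently in medulla and cortex. By limma with Benjamini-Hochberg adjustment over all genes, 0 of 44 carriers were called (0% of all genes were called), and at an unadjusted p under 0.05 there were 2 (4.55%, against 5.35% of all genes). Both were lower in medulla (4.55%, against 2.58%). The members' adjusted p ranged upward from 0.875, so none of the differences below passed the test. Slc14a2, a gene of the inner medulla, and Slc5a3, of osmolyte handling, were higher in medulla by 1.53 and 1.04. They were not called either, with adjusted p = 0.875 by limma for both. The lack of calls therefore does not show that the carriers were equal between regions. The difference was below 0, meaning lower in medulla, for 32 members (72.7%, against 54.2%) and above 0 for 12. The median difference was -0.09 over the members and -0.0071 over all genes, and single members ran from -0.31 for Slc25a39 to 0.29 for Slc25a24. The members' median ran from -0.13 to -0.038 with 1 array left out, the latter without medulla 4, and was -0.059 without cortex 2 and -0.060 without medulla 3. The Slc25a24 difference was 0.10 without medulla 4, and the Slc25a39 difference -0.18 without medulla 3 and -0.21 without medulla 4. Values of the regions did not overlap for 1 member, Slc25a19l1 (2.27%, against 2.83%), which is dim.

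**Figure D3:**
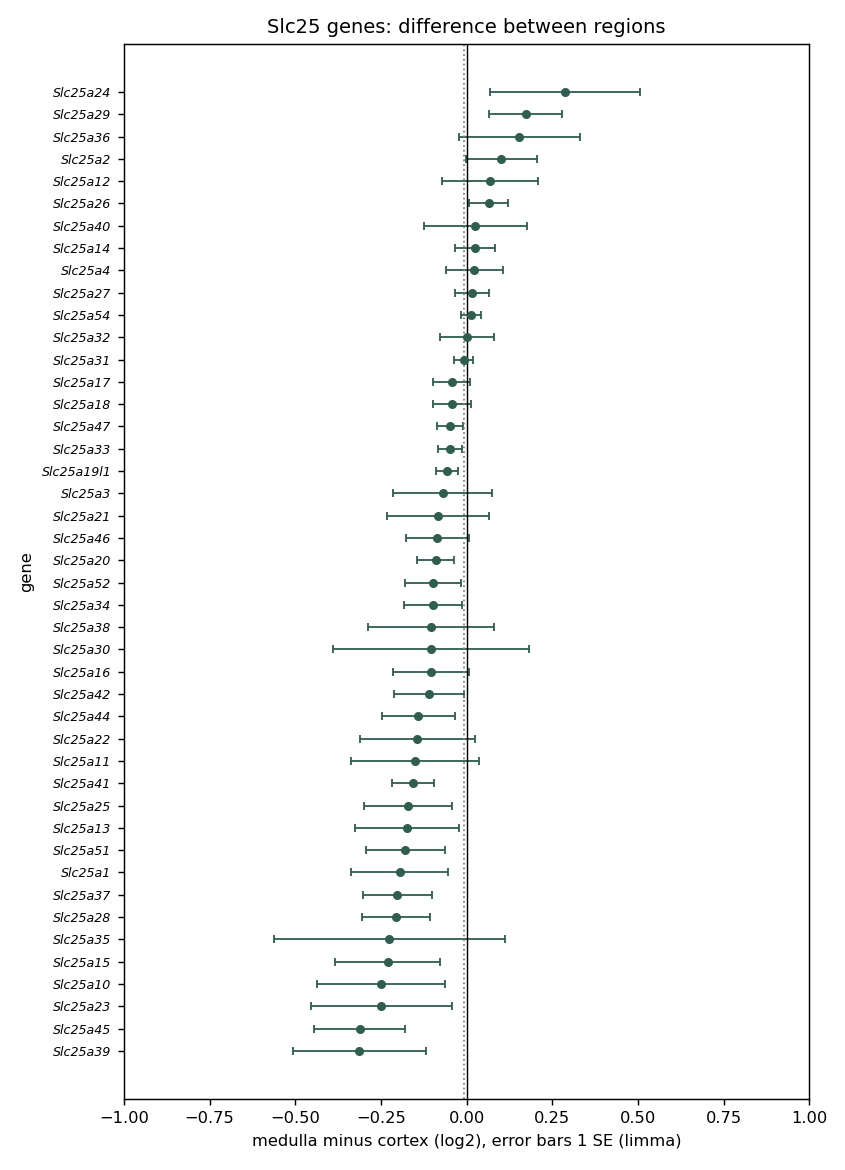
Points give medulla minus cortex in log2 intensity for each of the 44 carriers, with error bars of 1 standard error from limma (4 arrays a region), and the dotted line marks the median of all genes. The points run from -0.31 to 0.29 and 32 of them lie below 0.

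Slc25a45 and Slc25a41 were the members at an unadjusted p under 0.05. Slc25a45, a carrier with no substrate assigned here, read 6.69, 6.81, 6.69 and 6.39 in cortex and 6.41, 6.63, 6.14 and 6.16 in medulla. Medulla 3 and medulla 4 lay below every cortex array, while the other medulla arrays overlapped with cortex. The difference was -0.31 with a standard error of 0.13, with unadjusted p = 0.0478 and adjusted p = 0.875 by limma, and the exact two-sided permutation test over the 8 arrays gave p = 0.0857. Slc25a41, an ATP-Mg/phosphate carrier whose signal lay below the median probe set, read 4.98, 4.86, 4.95 and 4.90 in cortex and 4.92, 4.76, 4.66 and 4.71 in medulla. Medulla 1 lay within the cortex values and the other medulla arrays below them. Its difference was -0.16 with a standard error of 0.06, with unadjusted p = 0.0366 and adjusted p = 0.875 by limma, and the exact permutation p was 0.0857. Slc25a19l1 read 4.23, 4.24, 4.24 and 4.31 in cortex and 4.21, 4.18, 4.20 and 4.21 in medulla, at the array's lowest signals. The means differed by 0.06, and the lowest cortex value, 4.23, lay just above the highest medulla value, 4.21. The exact permutation p was 0.0286, the smallest that 4 arrays against 4 allow, and the adjusted p was 0.876 by limma.

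The di- and tricarboxylate carriers were mostly low on cortex 4. All 6 members of this group were lower on average in medulla, 5 were lowest on cortex 4 and 4 on medulla 4, and their median deviations there were -0.33 and -0.29. Slc25a35, which lies with the dicarboxylate carriers by resemblance and has no substrate assigned here, read 7.27, 7.33, 7.40 and 6.31 in cortex. In medulla it read 7.21, 7.35, 6.71 and 6.13. Cortex 4 and medulla 4 were each about 2-fold below the highest array of their region, with a range of 2.13-fold in cortex and a range of 2.33-fold in medulla, and medulla 3 lay between. The region means were 7.08 ± 0.51 and 6.85 ± 0.55 (SD, n = 4), a difference of -0.23 ± 0.34 (SE) that is smaller than either spread. Without cortex 4 the range in cortex was 0.13, and without medulla 4 the range in medulla was 0.64.

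Slc25a11, the oxoglutarate carrier that exchanges 2-oxoglutarate for malate in the malate-aspartate shuttle, read 9.21, 9.28, 9.26 and 8.67 in cortex and 9.03, 9.30, 8.88 and 8.59 in medulla. Slc25a11 covered 0.61 in cortex with cortex 4 and 0.07 without it. The medulla values were spread without such a gap, over 0.71 from medulla 2 down to medulla 4. Slc25a10, the dicarboxylate carrier that exchanges malate or succinate for phosphate, read 9.48, 9.54, 9.66 and 9.02 in cortex and 9.46, 9.43, 8.89 and 8.92 in medulla. Here medulla 3 was as low as medulla 4, and both lay below every cortex array. The Slc25a10 difference between regions was -0.25 ± 0.19 (SE), with adjusted p = 0.879 by limma, and it ran from -0.38 without cortex 4 to -0.15 without medulla 3. Slc25a1, the citrate carrier that supplies cytosolic citrate for lipid synthesis, went the other way on cortex 4, reading 6.37, 6.70, 6.67 and 6.91 in cortex and 6.57, 6.71, 6.21 and 6.38 in medulla. Slc25a21, the oxodicarboxylate carrier of lysine breakdown, had ranges of 0.45 in cortex and 0.65 in medulla, and Slc25a34 ranges of 0.29 and 0.24.

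**Figure D4:**
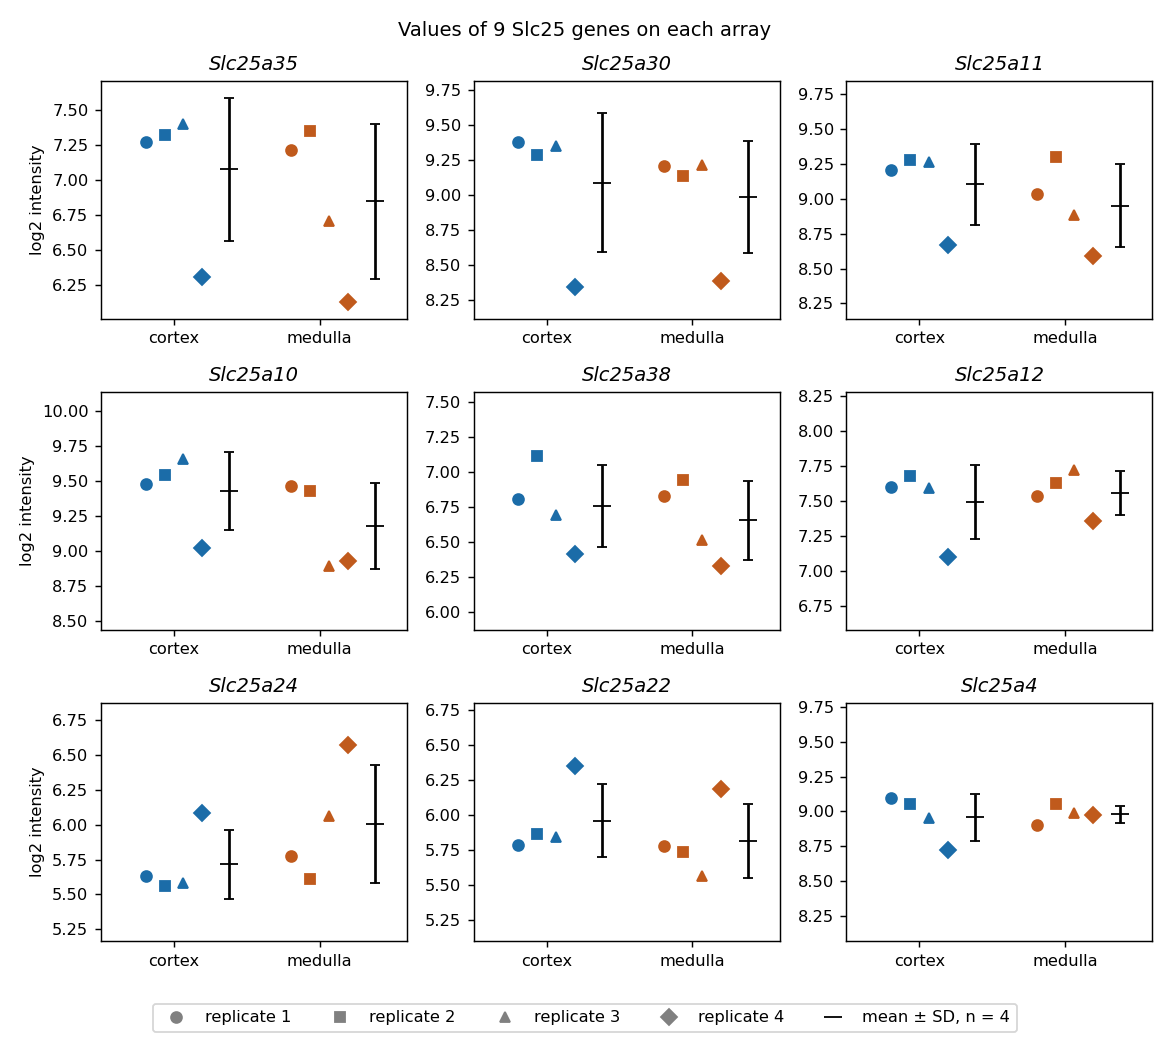
Points are the log2 intensities of 9 carriers on each array, with a marker shape for each replicate number, and the black bar is the mean ± SD of 4 arrays. The diamonds (arrays numbered 4) lie lowest in both regions for Slc25a35, Slc25a30, Slc25a11, Slc25a38 and Slc25a12 and highest for Slc25a24 and Slc25a22, and Slc25a4 covers only 0.15 in medulla.

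The amino acid carriers were low on the same arrays, with 7 of 9 lowest on cortex 4, 6 of 9 lowest on medulla 4, and median deviations of -0.23 and -0.21. Slc25a13, the aspartate/glutamate carrier citrin, read 8.22, 8.27, 8.08 and 7.80 in cortex and 8.02, 8.23, 7.78 and 7.64 in medulla. Slc25a12, the other aspartate/glutamate carrier, was chosen for full values after they were seen and read 7.60, 7.67, 7.60 and 7.10 in cortex and 7.54, 7.63, 7.72 and 7.35 in medulla. Both carriers, which complete the malate-aspartate shuttle with Slc25a11, were lowest on cortex 4 and on medulla 4. Slc25a15, which exchanges ornithine and citrulline, read 7.47, 7.82, 7.80 and 7.39 in cortex and 7.38, 7.75, 7.31 and 7.13 in medulla. Cortex 4 and cortex 1 were both low, so cortex 4 did not stand alone for this gene. Slc25a38, the glycine carrier needed for haem synthesis, read 6.81, 7.12, 6.69 and 6.41 in cortex and 6.83, 6.94, 6.51 and 6.33 in medulla. This cortex range, 0.70, rested on cortex 2 above as well as cortex 4 below, and was 0.40 without cortex 2.

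Slc25a22, a glutamate carrier, showed the opposite order. It read 5.79, 5.86, 5.84 and 6.35 in cortex and 5.78, 5.74, 5.56 and 6.19 in medulla, with the array numbered 4 highest in each region. Without these arrays its ranges were 0.08 in cortex and 0.21 in medulla. Slc25a29, a carrier of basic amino acids, read 5.57, 5.47, 5.54 and 5.16 in cortex and 5.72, 5.73, 5.49 and 5.48 in medulla, so cortex 4 lay below every other array. It was among the carriers higher on average in medulla, by 0.17 ± 0.11 (SE), with adjusted p = 0.877 by limma, and by 0.08 without cortex 4. Among the remaining amino acid carriers, Slc25a44, which carries branched-chain amino acids, had ranges of 0.30 and 0.41, Slc25a2, an ornithine carrier, 0.24 and 0.47, and Slc25a18, a glutamate carrier, 0.13 and 0.22 in cortex and medulla.

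The adenine nucleotide and phosphate carriers were split. Of 8 members, 4 were lowest on cortex 4 and 0 on medulla 4, and the median deviation was -0.05 on both arrays. Slc25a4, the ADP/ATP carrier of heart and muscle that exports ATP from the matrix, read 9.09, 9.06, 8.95 and 8.73 in cortex and 8.90, 9.05, 8.99 and 8.97 in medulla. All medulla arrays lay within 0.15 of each other, and the regions differed by 0.02 ± 0.08 (SE). A dimmer second probe set of Slc25a4 gave means of 5.54 in cortex and 5.47 in medulla, the opposite direction, and the difference was also below 0 without cortex 4, without medulla 2 and with array weights. Slc25a3, which imports phosphate for ATP synthesis, read 8.91, 8.91, 8.77 and 8.65 in cortex and 8.91, 9.07, 8.48 and 8.49 in medulla. Medulla 3 and medulla 4 were its lowest arrays of all 8.

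The calcium-regulated ATP-Mg/phosphate carriers, which set the size of the matrix nucleotide pool, differed among themselves. Slc25a23 read 8.05, 8.13, 8.00 and 7.65 in cortex and 7.92, 8.17, 7.34 and 7.39 in medulla, with medulla 3 and medulla 4 below every cortex array. Slc25a24 read 5.63, 5.56, 5.58 and 6.09 in cortex and 5.78, 5.61, 6.06 and 6.57 in medulla. For Slc25a24 the array numbered 4 was highest in each region and medulla 3 came next in medulla, so it was high where Slc25a23 was low. The range of Slc25a24 in medulla, 1.95-fold, was 0.45 on the log2 scale without medulla 4, and in cortex 0.07 without cortex 4. Slc25a25 read 5.86, 5.72, 5.96 and 5.97 in cortex and 5.90, 5.91, 5.36 and 5.66 in medulla, with medulla 3 lowest. Slc25a17, a carrier of peroxisomes, had ranges of 0.17 and 0.15 and a difference of -0.04 ± 0.05 (SE).

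Carriers of cofactors, lipid precursors and nucleotides were lowest on cortex 4 for 7 of 11 members and on medulla 4 for 5, with median deviations of -0.10 on each. Slc25a39, a glutathione importer, read 7.94, 8.08, 8.16 and 7.95 in cortex and 8.01, 8.15, 7.32 and 7.40 in medulla. Cortex was even for this gene, and medulla 3 and medulla 4 lay below every other array. Its difference between regions was -0.31 ± 0.19 (SE), with adjusted p = 0.877 by limma. Slc25a40, the other glutathione importer, was not low there, with means of 5.67 ± 0.11 in cortex and 5.70 ± 0.31 in medulla (SD, n = 4) and its highest value, 6.16, on medulla 3. Slc25a20, which brings acylcarnitines into the matrix for fatty acid oxidation, read 6.58, 6.74, 6.69 and 6.54 in cortex and 6.52, 6.63, 6.52 and 6.52 in medulla. These arrays lay close together, with ranges of 0.20 and 0.11, and cortex 4 was about level with cortex 1.

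Slc25a36, a pyrimidine nucleotide carrier, read 6.75, 6.49, 6.32 and 6.17 in cortex and 6.79, 6.59, 6.81 and 6.16 in medulla. Cortex 4 and medulla 4 were almost equal and lowest, but the cortex values were spread without a gap. Slc25a33, the other pyrimidine nucleotide carrier, covered 0.11 in cortex and 0.06 in medulla. Slc25a51, the NAD carrier, had a difference of -0.18 ± 0.12 (SE) and ranges of 0.31 and 0.48. The others of this group, Slc25a16, Slc25a26, Slc25a32, Slc25a42 and Slc25a52, had differences between -0.11 and 0.06.

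Both iron carriers, the mitoferrins that feed haem and iron-sulphur cluster synthesis, were highest in cortex on cortex 4. Slc25a37 read 5.60, 5.80, 5.95 and 6.06 in cortex and 5.54, 5.65, 5.64 and 5.78 in medulla. Slc25a28 read 6.47, 6.45, 6.44 and 6.66 in cortex and 6.30, 6.48, 6.04 and 6.37 in medulla. Each was lower on average in medulla, with differences of -0.20 ± 0.10 (SE) for Slc25a37 and -0.21 ± 0.10 (SE) for Slc25a28, with adjusted p = 0.875 by limma for both. Without cortex 4 the Slc25a37 difference was -0.13, and without medulla 3 the Slc25a28 difference was -0.12.

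In the branch related to the uncoupling proteins, Slc25a30, also called kidney mitochondrial carrier, read 9.38, 9.29, 9.35 and 8.34 in cortex and 9.21, 9.14, 9.21 and 8.39 in medulla. In each region 3 arrays lay within 0.09 of each other and the array numbered 4 lay well below them, so the cortex range was 2.05-fold and the medulla range 1.77-fold. The region means, 9.09 ± 0.50 and 8.99 ± 0.40 (SD, n = 4), differed by less than these spreads. Slc25a14 and Slc25a27, the brain uncoupling proteins, were flat by comparison, with ranges of 0.12 and 0.21 in cortex and 0.22 and 0.09 in medulla. Of the carriers without a substrate assigned here, Slc25a46, a protein of the outer membrane, had ranges of 0.12 and 0.41, and Slc25a47 and Slc25a54 had ranges of at most 0.13.

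Genes that work beside the carriers were set next to them, from lists of related genes. No list held a gene called between regions. Of 15 tricarboxylic acid cycle enzymes, 14 were lower on average in medulla, 13 were lowest on cortex 4 and 9 on medulla 4, with median deviations of -0.17 on each and none with a 2-fold range. Sdha, the flavoprotein subunit of succinate dehydrogenase, read 9.86, 9.83, 9.77 and 9.40 in cortex and 9.73, 9.92, 9.53 and 9.16 in medulla. Of 24 enzymes that share substrates with the carriers, 16 were lowest on cortex 4 and 13 on medulla 4, while 6 and 5 were highest there. In this list 3 enzymes had a 2-fold range in both regions. Oat, ornithine aminotransferase, which draws on the ornithine that Slc25a15 carries, read 9.97, 10.02, 9.58 and 8.55 in cortex and 9.73, 9.85, 9.09 and 8.30 in medulla. Bckdhb, a subunit of the branched-chain keto acid dehydrogenase, read 8.38, 8.54, 8.34 and 7.43 in cortex and 8.12, 8.43, 7.95 and 7.18 in medulla. Both enzymes were among the 4 of this list picked for the largest smaller regional range. They covered more than any carrier in each region, Oat with 1.47 and 1.56 and Bckdhb with 1.11 and 1.25. The median ranges of the whole list were 0.51 in cortex and 0.54 in medulla.

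Lists of other mitochondrial genes were divided on these arrays. Of 11 genes of the outer membrane and protein import, 5 were lowest on cortex 4 and 4 highest, with a median deviation of -0.02. Of 10 biogenesis genes, 4 were lowest on cortex 4, with a median deviation of -0.04, although Ppargc1a, the coactivator of mitochondrial biogenesis, read 9.10, 8.75, 8.87 and 8.10 in cortex and 8.84, 8.88, 9.08 and 8.35 in medulla. Of 13 genes listed as other inner membrane carriers and channels, 6 were lowest on cortex 4 and 4 highest, with a median deviation of -0.09. That is the same as for the Slc25a members on cortex 4. The list as drawn up holds Ucp and Mtch genes, which belong to the same family under other symbols. Mtch products lie in the outer membrane. This list is therefore not wholly apart from the family. On medulla 4, however, 4 of the 13 were lowest and 5 highest, with a median deviation of 0.03, beside -0.10 for the carriers. Mpc1, a subunit of the pyruvate carrier, read 7.60, 7.14, 7.04 and 6.40 in cortex and 7.44, 7.49, 7.50 and 6.26 in medulla, and so was low on the arrays numbered 4 as Slc25a30 was. Ucp2, the uncoupling protein found in many tissues, was highest on those arrays, at 7.84 in cortex and 8.52 in medulla, with the others between 7.43 and 8.02.

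**Figure D5:**
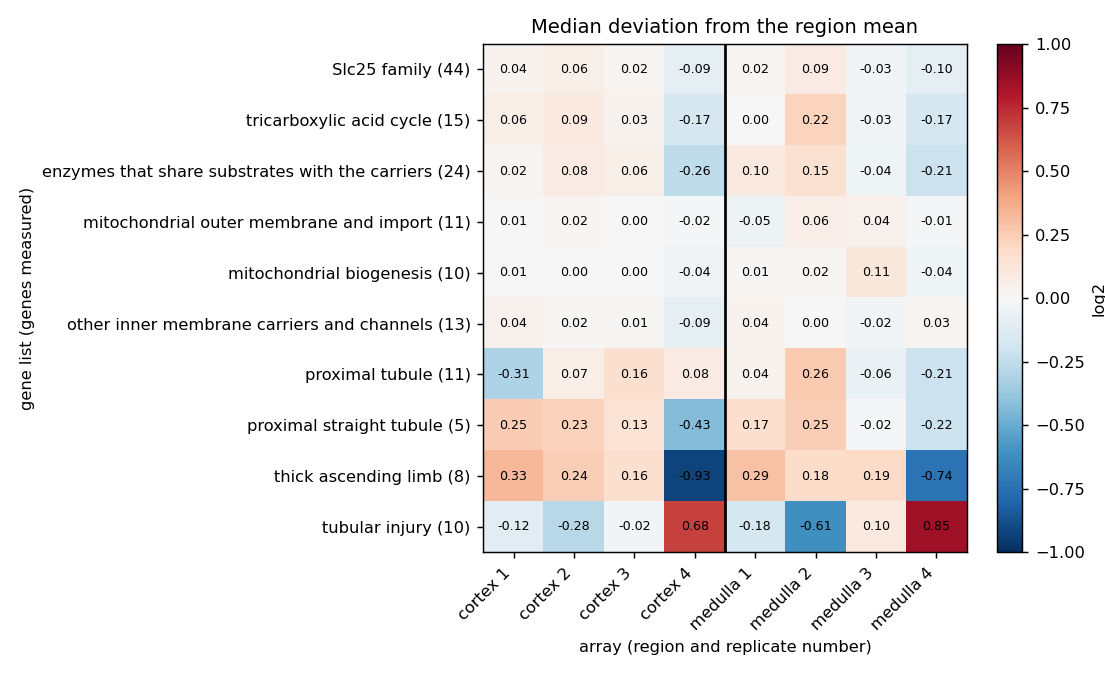
Each cell prints the median, over the genes of a list, of the log2 intensity on 1 array minus the mean of its region, with the number of genes measured in parentheses. The carriers stand at -0.09 on cortex 4 and -0.10 on medulla 4, the thick ascending limb list at -0.93 and -0.74, and the tubular injury list at 0.68 on cortex 4.

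Markers of nephron segments moved with the same arrays, and their part in the carrier values was not tested. In whole tissue, fewer cells of a type and less RNA per cell cannot be told apart. The summed intensity of 8 thick ascending limb genes was 9508, 8265, 7708 and 3827 on cortex 1 to 4 and 9061, 9118, 7986 and 5050 on medulla 1 to 4. Sums follow the brighter genes, and of these 8 genes 6 were lowest on cortex 4 and 5 on medulla 4, while 2 were highest on each. Ptger3, a prostaglandin receptor, was highest of its region on both, at 9.06 and 9.65. The sum of 5 proximal straight tubule genes was 4000, 3747, 3240 and 1297 in cortex and 3316, 3268, 3373 and 1611 in medulla. Both sums were therefore lowest on cortex 4 and on medulla 4, as Slc25a35 and Slc25a30 were. Collecting duct principal cell sums were lowest there too, at 924 and 937, and so were intercalated cell sums, at 979 and 731. The distal convoluted and connecting tubule sum was instead lowest on cortex 1 and medulla 1. The inner medulla and osmolyte sum was lowest on cortex 3 and medulla 2. Of the 5 proximal straight tubule genes 4 were lowest on cortex 4 and 4 on medulla 4, while 1 was highest on cortex 4. Slc7a13, an amino acid transporter and the brightest gene of the proximal straight tubule list, weighs most in its sum. Slc7a13 read 9.65 on cortex 4 and 10.23 on medulla 4, with the other arrays between 11.37 and 11.69. The wider proximal tubule list of 11 genes summed to 8478, 10645, 11174 and 10281 in cortex, where cortex 1 was lowest, and to 9132, 9940, 7026 and 7067 in medulla, where medulla 3 and medulla 4 were lowest. This list was divided, with 3 genes lowest and 5 highest on cortex 4, and 6 lowest and 4 highest on medulla 4. Slc5a12, a lactate transporter, read 5.03, 5.76, 6.16 and 7.90 in cortex and 4.98, 5.66, 6.69 and 6.88 in medulla, against the order of the sum in medulla. The sum of 10 tubular injury genes was highest on cortex 4 at 7330, where the lowest cortex sum was 790. In medulla it was highest on medulla 4 at 8434, with 3504 on medulla 3 and a lowest medulla sum of 775. Of these 10 genes 6 were highest on cortex 4 and 7 on medulla 4, while 1 was lowest on each. Havcr1, the kidney injury molecule, read 4.59, 5.15, 7.54 and 11.27 in cortex and 4.54, 4.80, 8.95 and 11.32 in medulla, so arrays under the same treatment label differed widely. No defining marker of the thick ascending limb or the proximal straight tubule was at or under the lower quartile of every array, so both segments' markers were measured above it on some or all arrays.

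The region labels were checked against 5 genes of the inner medulla and osmolyte handling, all higher on average in medulla with a median difference of 1.04, and 11 proximal tubule genes, 10 lower in medulla with a median of -0.42. These are averages, and single arrays overlapped. Cortex 1 was above medulla 2 for Nfat5 (8.54 against 8.34) and Slc5a3 (8.12 against 7.92), and its proximal tubule sum of 8478 lay below the 9940 of medulla 2. Of 7 distal convoluted and connecting tubule genes, 7 were lower in medulla, and Pvalb was dim. Collecting duct principal cell genes summed to between 924 and 1877 in cortex and between 937 and 3483 in medulla, and 5 of 7 were lowest on cortex 4 and 6 on medulla 4. Of 6 intercalated cell genes 4 were lowest on cortex 4 and 4 on medulla 4. Leukocyte genes summed to 618 to 1080 in cortex, highest on cortex 1 with 878 on cortex 4. In medulla they summed to 801 to 1584, highest on medulla 4. Of these 10 genes, 5 were highest on cortex 4 and 8 on medulla 4. Of 7 proliferation genes, 6 were highest on cortex 4 and 7 on medulla 4. Adipocyte and muscle genes, which would mark tissue other than kidney tubules, summed to between 374 and 542 and between 299 and 573 over all arrays. The 3 erythrocyte genes measured summed to between 214 and 892, but these include Slc4a1, which intercalated cells also express and which read 9.62 on medulla 1, so that sum does not mark blood alone. Their part in the carrier values was not tested.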

How the data were processed

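RNA was extracted from homogenised kidney, and biotin-labelled DNA targets were hybridised, per the labels' protocols, to Affymetrix whole-transcript arrays. Linear intensity values per probe set were deposited, and the submitters' processing notes name RMA and Affymetrix Expression Console, versions not given in the sources used here. Values were logged (log2, no pseudocount). Of 29870 probe sets, 18511 had 1 gene symbol in the platform annotation, 575 had several and 10784 are unnamed here. Taking the brightest of each gene left 18166 genes, and 45 Slc25a probe sets became 44 members. The contrast of regions, 4 arrays each, used limma 3.58.1 (R 4.3.3) over all genes with Benjamini-Hochberg adjustment, and called genes had an adjusted p under 0.05 and a difference of at least 2-fold. The limma contrast was run on simulated data with known changes and noise drawn separately for each gene and array. Shifts shared by many genes on an array were not simulated. Ranges are the highest minus the lowest log2 value of a region.

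Members and lists were chosen with earlier results of these data known. The lists were the mitochondrial sets and the markers of nephron segments, injury, leukocytes, fat, muscle, blood and proliferation. Values on every array were given for members with a 2-fold range, the 10 with the largest smaller regional range, the 8 with the smallest p, and a set of central carriers. Alternatives were quantile normalization, median centring, mean of probe sets, no dim genes (up to the 30th percentile), each array left out, a trended robust prior, array weights, and other thresholds. RefSeq names and promoters are from GRCr8. Figures used matplotlib 3.10.9.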

Additional observations from a re-analysis of the deposited data

Results flagged for a closer look

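Within a region of 4 arrays, a value was singled out where its gap to the nearest array, over the whole range, exceeded Dixon's critical value for 4 samples. Chance alone singles out about 1 in 20 groups. In cortex this held for 10 of 44 carriers (22.7%, against 7.88% of all genes) and in medulla for 3 (6.82%, against 6.45%).

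In cortex, 9 of the 10 stood apart on cortex 4. Low there were Slc25a11 at 8.67, Slc25a12 at 7.10, Slc25a16, a coenzyme A related carrier, at 7.15, Slc25a30 at 8.34 and Slc25a35 at 6.31. High there were Slc25a22 at 6.35, Slc25a24 at 6.09, Slc25a28 at 6.66 and Slc25a19l1, a dim gene, at 4.31. The other was Slc25a2, an ornithine carrier, high on cortex 1 at 5.22. In medulla Slc25a30 was low on medulla 4 at 8.39, while Slc25a20 at 6.63 and Slc25a52, a dim gene, at 4.66 were high on medulla 2. The thick ascending limb, proximal straight tubule, collecting duct principal cell and intercalated cell sums were lowest on cortex 4 and medulla 4 as well. Their part in these values was not tested.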

How the results depend on the processing

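No carrier was called under any alternative, including the adjusted p alone and a 2-fold difference with no test. At an unadjusted p under 0.05 the count of 2 became 1 with quantile normalization, with median centring, without dim genes and with array weights, and 3 with a trended robust prior, and ran from 0 to 5 with 1 array left out. It was 0 without cortex 3 or medulla 4 and 5 without medulla 2. The 1 member without overlap became 0 without dim genes and ran from 1 to 6 with 1 array left out, reaching 6 without cortex 4 or medulla 2. A lack of overlap is easier to reach with fewer arrays. The same counts over all genes were not taken under these alternatives, so these changes cannot be read as particular to the carriers. The 2-fold range counts of 2 in cortex, 1 in medulla and 1 in both became 5, 13 and 4 at 1.5-fold and 0, 0 and 0 at 3-fold. With 1 array left out they ran from 0 to 2, 0 to 1 and 0 to 1, at 0 without cortex 4 or medulla 4, and without both of these arrays they were 0, 0 and 0. The median cortex range of 0.30 ran from 0.13 to 0.30 with 1 array left out and was 0.13 without both, and the median medulla range of 0.41 ran from 0.25 to 0.39. Leaving out an array can only keep or lower a range, and the ranges of all genes were not taken this way. The median difference of -0.09 ran from -0.13 to -0.038.

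Of the 23 members named by rule, which leaves out Slc25a12, 5 changed the sign of their difference between regions under an alternative and 18 did not. With 1 array left out Slc25a3 ran from -0.18 to 0.014, Slc25a4 from -0.054 to 0.068, Slc25a30 from -0.35 to 0.10, Slc25a35 from -0.48 to 0.014 and Slc25a38 from -0.22 to 0.016. Slc25a4 was also at -0.025 with the mean of its probe sets and at -0.037 with array weights. Members lower in medulla numbered between 29 and 35 over the scalings, filters and arrays left out, and the members lowest on cortex 4 were 26 or 27. The lowest adjusted p of these 23 under any alternative was 0.488 by limma, for Slc25a45 without medulla 2. The causes were not tested. No paired analysis was possible because the labels give no replicate number that the regions share. The number of arrays limits the precision.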
